A study of Mus musculus with 15 samples.

Results

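The comparison was between 3 control explants and 3 explants treated with JTE013 (JTE), which are 6 of the 15 libraries of the series and were taken by their labels in the deposited table of read counts. Each sample was embryonic pancreas of strain C57/Bl6J, by the methods of the study wild-type dorsal buds taken at 14.5 dpc and cultured for 2 days at an air-liquid interface in serum-free medium. Control explants were kept in the standard condition, and JTE explants received 15 µM JTE013, an antagonist of the sphingosine-1-phosphate (S1p) receptor S1pr2, renewed daily. Neither group carried a transgene or a mutation, and up to 3 pancreata of the same treatment were pooled in a sample. The whole bud was sequenced, so each library held RNA of epithelium, mesenchyme, vessels, mesothelium and resident immune cells, and fewer cells of a type and less RNA per cell cannot be told apart. Pdx1, which marks pancreatic epithelium, was read in every library, at 1589, 1485 and 1458 normalised reads in control and 943, 1081 and 836 in JTE. Among the sequenced libraries none was labelled as an S1pr2 null explant with JTE013, so in these data effects of the compound through S1pr2 and through other proteins cannot be told apart either.

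The list with the highest median belongs to the integrated stress response. In this pathway several kinases that sense amino acid shortage, unfolded protein in the endoplasmic reticulum (ER), haem shortage or double-stranded RNA phosphorylate the initiation factor eIF2, which lowers protein synthesis while favouring translation of the transcription factor Atf4. Atf4, together with partners of the C/EBP family, then induces genes that make, import and charge amino acids, and feedback regulators that restrain the response. In the secondary transition of the embryonic pancreas, which the explants pass through in culture, tip cells become acinar, trunk cells become ductal or endocrine, and endocrine progenitors pass through a Neurog3 stage.

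The 6 libraries held between 12144568 and 13589186 reads in genes, and the values below are normalised read counts, scaled to a common library size and listed in the order of replicates 1, 2 and 3. The library JTE 3 stood apart from JTE 1 and JTE 2: the chi-square per gene between counts was 2.88 for JTE 1 and JTE 2, 16.2 for JTE 1 and JTE 3 and 21.8 for JTE 2 and JTE 3, against 5.09 to 9.60 between control libraries. The 10 most abundant genes took 8.63% of the reads in JTE 3, against 11.3% and 12.6% in JTE 1 and JTE 2 and 9.02% to 10.9% in the control libraries. Reads of the mitochondrial genome made up 1.03% to 1.18% of the control libraries and 1.32% to 1.5% of the JTE libraries.

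The test covered 16245 genes. At an adjusted p of 0.05 (edgeR, quasi-likelihood), 25.9% of all genes tested were higher in JTE and 26.2% were lower, so that a list of genes had to exceed these shares to stand out from the background. By the criterion of the study, here called regulated (a protein-coding gene with an adjusted p up to 0.1, over 100 normalised reads on average in either group and a fold below 0.6 or above 1.6), 3.44% of the protein-coding genes tested were higher and 5.79% lower. The median log2 fold change over all genes was 0.0, and log2 fold changes are given with their standard error (SE) as JTE minus control, with n = 3 libraries a group. Genes were described in 50 lists, of which 43 cover pathways and 7 cover cell types.

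**Figure D1:**
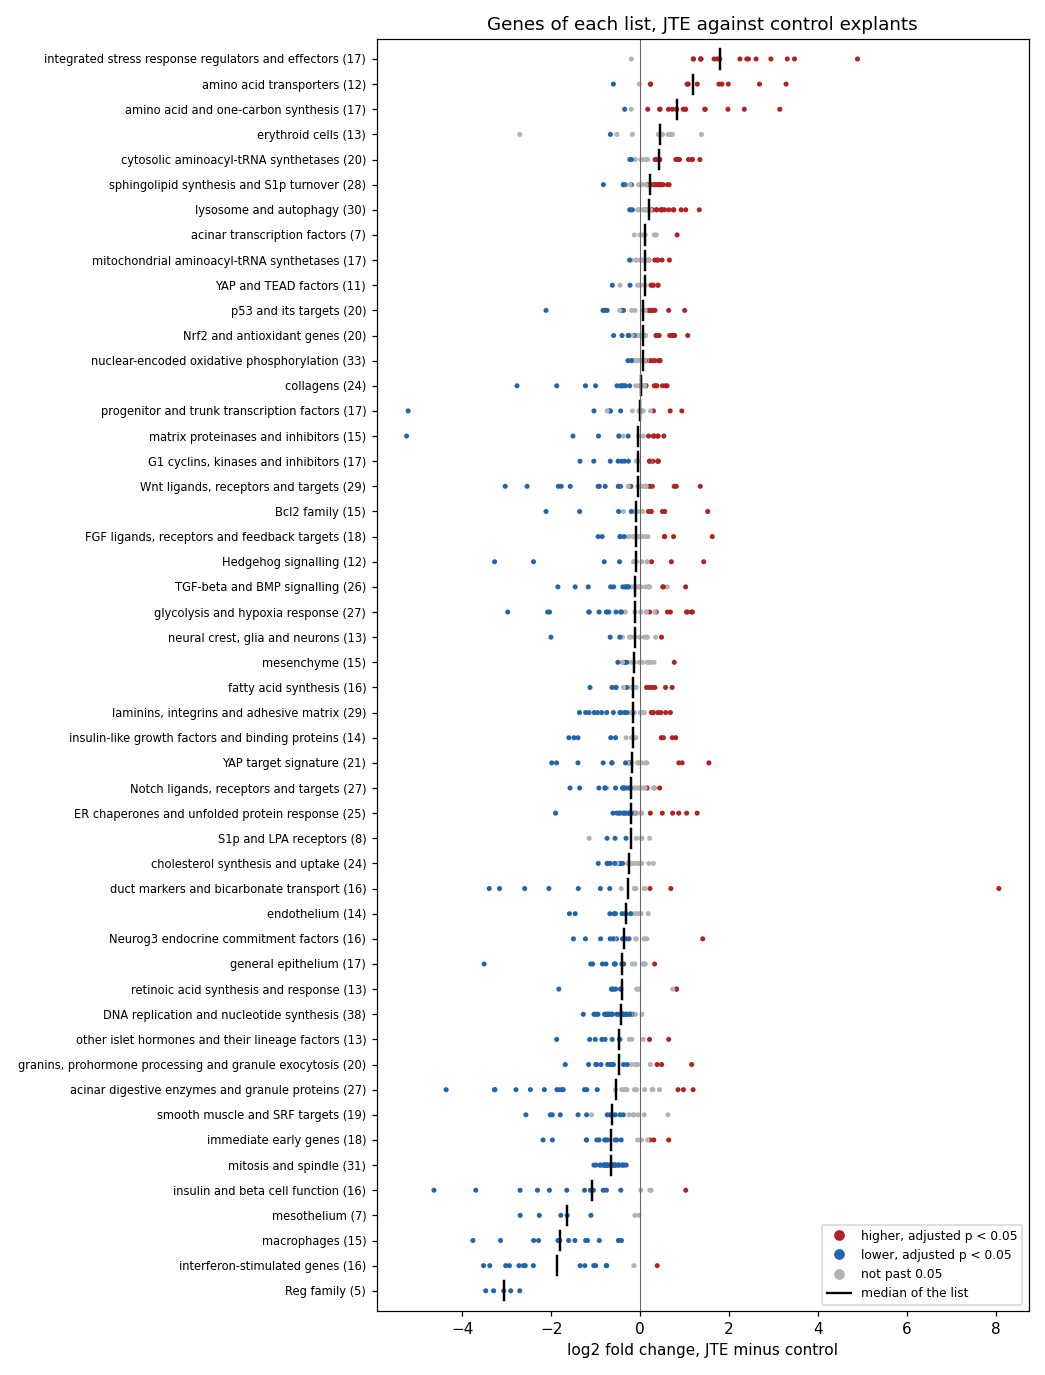
Log2 fold change (JTE minus control) of each gene of the 50 lists, 1 row a list with the number of genes tested in brackets, ordered by the median (black bar). Red points were higher and blue points lower at an adjusted p of 0.05, and grey points did not pass. The integrated stress response stands at the top with a median of 1.79, and the Reg family at the bottom with a median of −3.07.

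Genes of the integrated stress response rose almost as a block. Of 17 genes listed, 16 were higher in JTE at an adjusted p of 0.05 and 0 lower, 15 met the criterion for regulated genes, and the median log2 fold change was 1.79. The transcription factors of the pathway moved by different amounts. Atf4 (15: 80255184-80257540; coordinates are in build mm10) counted 3409, 3488 and 2875 normalised reads in the control libraries and 7628, 7463 and 7328 in the JTE libraries, which is 1.20 ± 0.07 on the log2 scale (edgeR adjusted p = 7.24e-10). Atf5, a related factor that is also induced when eIF2 is phosphorylated, counted 1931, 1912 and 1687 in control and 14617, 14675 and 13236 in JTE (2.94 ± 0.07, edgeR adjusted p = 5.03e-14). In both genes every JTE library lay above every control library.

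Ddit3 (Chop; 10: 127290774-127296288), a C/EBP-related factor linked to cell death under prolonged stress, counted 221, 251 and 241 normalised reads in control and 2326, 2275 and 3324 in JTE (3.48 ± 0.14, edgeR adjusted p = 1.38e-11). The dimer partners Cebpb (1.37 ± 0.10) and Cebpg (1.36 ± 0.09) and the stress factor Atf3 (1.20 ± 0.11) rose by smaller amounts, with adjusted p-values in edgeR of 1.03e-08, 5.39e-09 and 1.01e-07. Ddit3 was highest in JTE 3, and its JTE libraries did not overlap the control libraries.

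The steepest rise of the pathway was in a feedback regulator. Trib3 (2: 152337422-152344032), a pseudokinase that restrains Atf4 and Akt, went from 123, 144 and 101 normalised reads in the control libraries to 3346, 3395 and 4213 in the JTE libraries, a log2 fold change of 4.89 ± 0.14 (edgeR adjusted p = 5.38e-13). Ppp1r15a (Gadd34), the phosphatase subunit that reverses eIF2 phosphorylation, counted 474, 444 and 326 in control and 1391, 1376 and 1383 in JTE (1.74 ± 0.12, edgeR adjusted p = 5.17e-09). Chac1, which degrades glutathione, counted 270, 252 and 172 in control and 1316, 1409 and 1044 in JTE (2.44 ± 0.13, edgeR adjusted p = 3.48e-10). All 3 genes were low in every control library and high in every JTE library. The regulators of mTORC1 signalling and translation Sesn2 (1.67 ± 0.08) and Eif4ebp1 (1.37 ± 0.06) also rose. Ddit4 (Redd1), a further inhibitor of mTORC1, counted 4765, 4685 and 4338 in control and 4396, 4615 and 3023 in JTE, with overlapping groups and an edgeR adjusted p of 0.214.

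Secreted products of the response were higher as well. The hormone Fgf21 was scarce, with 1.06, 4.02 and 3.12 normalised reads in control and 23.3, 25.5 and 36.3 in JTE (3.31 ± 0.58, edgeR adjusted p = 0.000145). Gdf15, a stress hormone of the TGF-beta family, counted 127, 110 and 68.7 in control and 496, 513 and 445 in JTE (2.25 ± 0.15). Stanniocalcin 2 (Stc2) counted 487, 555 and 429 in control and 2771, 2629 and 2374 in JTE (2.40 ± 0.10). Among cell-bound products, the lipoprotein receptor Vldlr counted 540, 595 and 492 in control and 3270, 3320 and 3348 in JTE (2.61 ± 0.10, edgeR adjusted p = 5.19e-12). The chromatin-bound stress protein Nupr1 counted 7606, 7955 and 5774 in control and 25206, 26487 and 22224 in JTE (1.79 ± 0.13, edgeR adjusted p = 7.28e-09). The spread within each group was small beside these differences, and none of the groups overlapped.

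Enzymes that make amino acids and carry one-carbon units rose with the stress genes: 15 of 17 were higher and 1 lower, 11 were regulated, and the median was 0.82. Of the enzymes given here, Aldh1l2 of the mitochondrial folate pathway rose most, followed by Cth and Mthfd2. Aldh1l2 (10: 83487450-83534140), which yields NADPH from formyl folate in mitochondria, counted 354, 400 and 275 normalised reads in control and 3058, 3340 and 2709 in JTE (3.14 ± 0.12, edgeR adjusted p = 5.19e-12). Mthfd2, its neighbour in that pathway, counted 692, 747 and 625 in control and 2640, 2721 and 2771 in JTE (1.98 ± 0.06, edgeR adjusted p = 9.24e-13). Serine synthesis changed less, with Phgdh at 0.64 ± 0.07, Psat1 at 0.82 ± 0.07 and Psph at 1.03 ± 0.10. Cth, which makes cysteine, rose by 2.35 ± 0.14, the mitochondrial Pck2 by 1.47 ± 0.09, Got1 (aspartate aminotransferase) by 1.45 ± 0.09 and asparagine synthetase (Asns) by 0.97 ± 0.10. Cytosolic Shmt1, which runs the folate reaction outside mitochondria, fell (−0.35 ± 0.07, edgeR adjusted p = 0.000501).

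Of 12 amino acid transporters, 10 were higher and 1 lower, 8 were regulated, and the median was 1.19. The cationic amino acid carrier Slc7a3 (X: 101079210-101086020) counted 93.4, 124 and 64.6 normalised reads in control and 924, 923 and 909 in JTE (3.29 ± 0.14, edgeR adjusted p = 2.23e-11). Slc7a11, the cystine importer, counted 75.4, 93.5 and 56.2 in control and 484, 502 and 469 in JTE (2.69 ± 0.15). Both partners of the leucine importer, Slc7a5 (1.77 ± 0.07) and Slc3a2 (1.84 ± 0.07), rose, as did Slc1a4 (1.99 ± 0.10), which carries neutral amino acids. Slc38a2, a carrier of small neutral amino acids, differed by only 0.23 ± 0.05 (edgeR adjusted p = 0.00112), and Slc43a1 fell by 0.60 on the log2 scale (edgeR adjusted p = 0.000295).

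Cytosolic and mitochondrial aminoacyl-tRNA synthetases, which charge tRNAs with amino acids in the 2 compartments, were listed apart. Among 20 cytosolic enzymes 13 were higher, 2 were lower and 8 were regulated (median 0.43), led by Eprs (1.34 ± 0.06), Sars (1.18 ± 0.05), Yars (1.17 ± 0.05) and Aars (1.09 ± 0.06). Among 17 mitochondrial enzymes 6 were higher, 1 was lower and 0 were regulated (median 0.12). Eprs counted 3385, 3461 and 3239 normalised reads in control and 8320, 8453 and 8838 in JTE. The histidyl enzyme Hars counted 1348, 1269 and 1369 in control and 1307, 1349 and 1379 in JTE. The rise did not cover all cytosolic synthetases, 5 of which did not pass the threshold. The difference between the 2 lists was not tested.

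**Figure D2:**
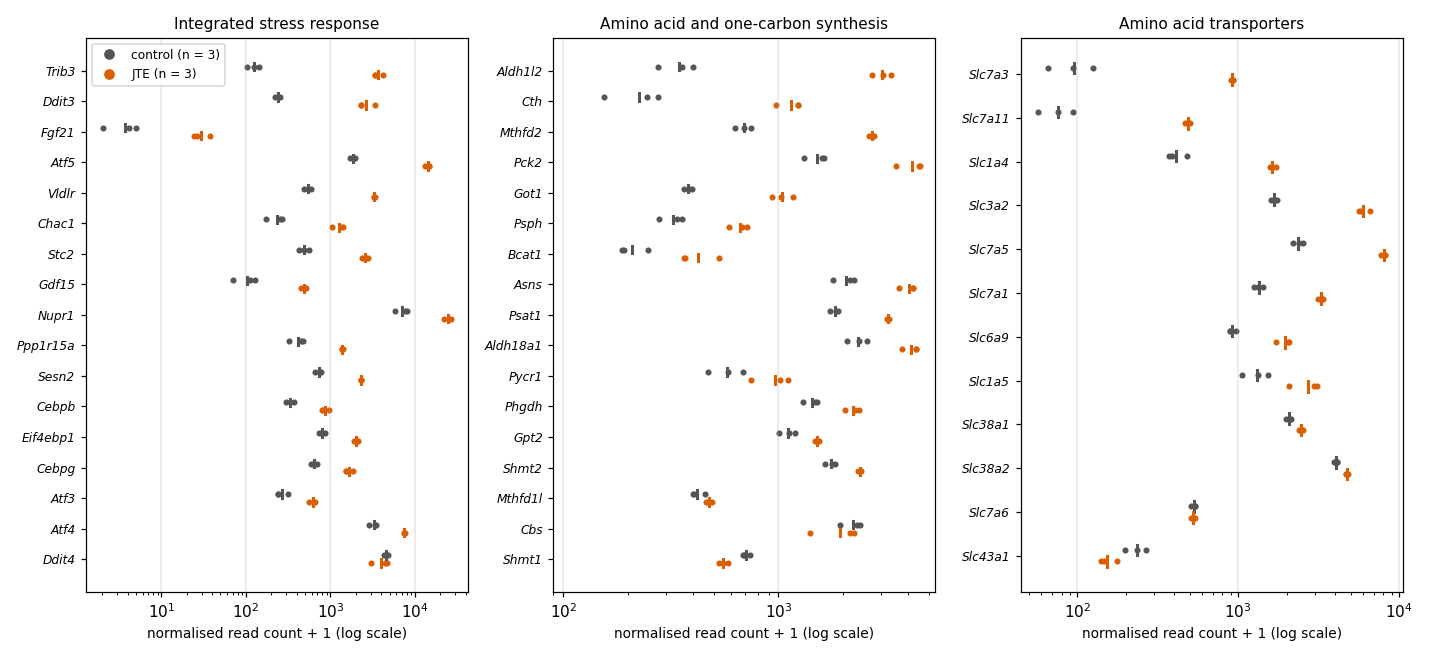
Normalised read count plus 1 (log axis) of each gene in the 3 control (grey) and 3 JTE (orange) libraries, with the mean as a short bar, for the integrated stress response, amino acid and one-carbon synthesis, and amino acid transporters. For Trib3, Ddit3, Aldh1l2 and Slc7a3 the orange points lie far to the right of the grey points, while Ddit4, Cbs and Slc7a6 overlap.

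Atf4 with a C/EBP partner binds a composite element with the core letters TGATGNAAN, and promoters of the stress genes were searched for it in RefSeq windows from 250 bases before to 50 bases after each start site (build GRCm38.p6, both strands). A match occurred for 6 of the 16 integrated stress response genes with a window (Atf3, Trib3, Chac1, Nupr1, Fgf21 and Vldlr), for 4 of 15 genes of amino acid and one-carbon synthesis (Asns, Pycr1, Got1 and Pck2), for 2 of 8 transporters (Slc7a11 and Slc1a4) and for 5 of 13 cytosolic synthetases. Of all 27025 genes with a window, 4.5% held one. Such a match is a description of the letters and not a measured binding site. Of the digestive enzymes 4 of 20 also held one. The stretches below, from 5 of the genes that were higher in JTE, end before the start site and show the matched letters in capitals, read 5′ to 3′ along the strand of the gene.
Chac1 (chr2:119351003-119351101, plus strand): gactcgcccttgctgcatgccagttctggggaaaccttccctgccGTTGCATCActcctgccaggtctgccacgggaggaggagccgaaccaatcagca
Vldlr (chr19:27216774-27216872, plus strand): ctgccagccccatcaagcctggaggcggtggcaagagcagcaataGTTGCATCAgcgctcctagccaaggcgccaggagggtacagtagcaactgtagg
Slc7a11 (chr3:50443614-50443724, minus strand): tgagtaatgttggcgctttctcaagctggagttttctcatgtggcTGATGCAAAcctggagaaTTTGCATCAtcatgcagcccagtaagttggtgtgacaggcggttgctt
Nupr1 (chr7:126625528-126625626, minus strand): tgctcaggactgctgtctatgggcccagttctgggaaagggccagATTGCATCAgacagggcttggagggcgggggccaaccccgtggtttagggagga
Fgf21 (chr7:45615577-45615675, minus strand): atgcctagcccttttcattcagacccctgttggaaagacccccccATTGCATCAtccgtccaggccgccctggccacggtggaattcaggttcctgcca
The stretch of Slc7a11 holds 2 matches on opposite strands, and the other 4 stretches hold 1 each, on the strand opposite to the gene.

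Chaperones of the ER did not follow the stress genes. In this list, which covers the folding machinery and the unfolded protein response that Ern1 (Ire1) and Atf6 drive, 6 of 25 genes were higher and 14 lower, with a median of −0.20, and without JTE 3 the number lower was 11. The sensors Ern1 (1.28 ± 0.10) and Atf6 (0.73 ± 0.05) and the degradation factors Sel1l (1.05 ± 0.14) and Herpud1 (0.87 ± 0.11) rose. Ern1 counted 1028, 1197 and 1199 normalised reads in control and 2844, 2800 and 2705 in JTE, without overlap. Hspa5 (BiP), the main ER chaperone, counted 18031, 17343 and 16353 in control and 16941, 16441 and 14847 in JTE (edgeR adjusted p = 0.133). The folding enzymes Pdia6 (−0.52 ± 0.07) and Pdia3 (−0.37 ± 0.05), the secreted factor Manf (−0.47 ± 0.09) and the degradation factor Derl3 (−1.90 ± 0.18) fell. Eif2ak3 (Perk), the ER kinase that phosphorylates eIF2, was also lower (−0.32 ± 0.07, edgeR adjusted p = 0.00144).

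The metallothioneins Mt1 and Mt2, which bind zinc and copper, were among the 12 regulated genes with the steepest rise. Mt1 counted 2040, 2377 and 2122 normalised reads in control and 17164, 16867 and 17992 in JTE (2.99 ± 0.13, edgeR adjusted p = 1.82e-11). Mt2 counted 1800, 2246 and 1903 in control and 15646, 15295 and 17601 in JTE (3.03 ± 0.13, edgeR adjusted p = 1.6e-11). Among 20 genes of the Nrf2 antioxidant programme 8 were higher and 5 lower, and without JTE 3 the number lower was 3. Hmox1 (0.74 ± 0.16), the ferritin chains Ftl1 (0.78 ± 0.08) and Fth1 (0.67 ± 0.09) and the glutathione enzyme Gclc (0.73 ± 0.07) rose. The classical target Nqo1 counted 54.1, 49.3 and 69.8 in control and 51.8, 49 and 85.6 in JTE, with overlap, and the pentose phosphate enzymes Pgd (−0.60 ± 0.05), Tkt (−0.41 ± 0.07) and G6pdx (−0.27 ± 0.05) fell.

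Lysosomal and autophagy genes leaned upward, with 14 of 30 higher and 3 lower (1 without control 1 or without JTE 1), 5 regulated and a median of 0.20. Npc1, which exports cholesterol from lysosomes, counted 583, 570 and 650 normalised reads in control and 1416, 1318 and 1803 in JTE (1.33 ± 0.11, edgeR adjusted p = 6.03e-08). Neu1 (1.03 ± 0.10) and Gaa (0.93 ± 0.05), which degrade sialylated glycans and glycogen, the calcium channel Mcoln1 (0.76 ± 0.08) and the autophagy adaptor Sqstm1 (0.75 ± 0.06) also rose. JTE 3 was the highest of the JTE libraries for Npc1, Neu1 and Mcoln1, and the 5 genes had no overlap between groups. The kinase Ulk1, which starts autophagy, was lower (−0.23 ± 0.06, edgeR adjusted p = 0.00304).

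Genes of p53 and of cell death were called in both directions. Of 20 p53 genes 8 were higher (40.0%) and 6 lower (30.0%). Of 15 genes of the Bcl2 family 5 were higher (33.3%) and 4 lower (26.7%). Among all genes tested 25.9% were higher and 26.2% lower. The number of p53 genes higher was 4 without control 3 and 5 without JTE 1 or without JTE 2. Trp53 itself fell, from 2278, 2225 and 2454 normalised reads in control to 1367, 1300 and 1495 in JTE (−0.74 ± 0.06, edgeR adjusted p = 2.15e-08). The death-promoting member Pmaip1 (Noxa) counted 155, 133 and 172 in control and 27.5, 35.7 and 41.9 in JTE (−2.12 ± 0.19, edgeR adjusted p = 1.41e-07), and Bok fell as well (−1.36 ± 0.14). Hrk, another death-promoting member, rose (1.52 ± 0.18, edgeR adjusted p = 2.56e-06), and so did the ribonucleotide reductase subunit Rrm2b (1.00 ± 0.08). The members with the largest changes thus had opposite signs.

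Proliferation genes fell together. All 31 of 31 mitosis genes were lower in JTE at an adjusted p of 0.05, 12 of them regulated, with a median of −0.66, and 33 of 38 genes of DNA replication were lower and 0 higher (median −0.44). The number of mitosis genes regulated was 5 without JTE 2 and 7 without control 3. The list medians relative to the control mean were −0.67, −0.74 and −0.58 in JTE 1, JTE 2 and JTE 3 for mitosis and −0.40, −0.52 and −0.49 for replication. Mki67 counted 2667, 3024 and 2928 normalised reads in control and 1506, 1552 and 1539 in JTE (−0.91 ± 0.06, edgeR adjusted p = 7.08e-09). The mitotic kinase Plk1 (−1.04 ± 0.09) and the anaphase activator Cdc20 (−0.99 ± 0.09) fell by about as much, and Cdc6, which loads the replicative helicase, fell by 1.28 on the log2 scale. Every library of the JTE group was below every control library for all 31 mitosis genes. The share of all genes tested without overlap between groups was not counted, so this count does not set the mitosis genes apart.

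The G1 regulators were split, with 7 of 17 higher and 7 lower. Cyclin D1 (Ccnd1) counted 1501, 1330 and 1493 normalised reads in control and 781, 715 and 608 in JTE (−1.04 ± 0.11, edgeR adjusted p = 6.21e-07), while cyclins D2 (Ccnd2, 0.23 ± 0.05) and D3 (Ccnd3, 0.41 ± 0.05) and the inhibitor p27 (Cdkn1b, 0.40 ± 0.05) rose slightly. Immediate early genes, which growth factor and stress signals switch on within minutes, were mostly lower (12 of 18, with 3 higher and a median of −0.65). Jun counted 6320, 5617 and 5153 in control and 2957, 2900 and 2844 in JTE (−0.97 ± 0.09). Junb counted 1234, 1061 and 842 in control and 448, 469 and 447 in JTE (−1.20 ± 0.11). Egr1 counted 2155, 2348 and 1676 in control and 1247, 1186 and 1183 in JTE (−0.77 ± 0.11). Klf4 went the other way (0.65 ± 0.11, edgeR adjusted p = 0.000114).

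Glycolytic enzymes changed in both directions. Of 27 genes of glycolysis and of the hypoxia response 8 were higher (5 regulated) and 12 lower (7 regulated). These are 29.6% and 44.4%, beside 25.9% higher and 26.2% lower of all genes tested. The hexokinase Hk1 counted 451, 436 and 483 normalised reads in control and 997, 1069 and 991 in JTE (1.16 ± 0.08), and the platelet isoform of phosphofructokinase Pfkp rose by 1.18 ± 0.12 while the liver isoform Pfkl fell (−0.76 ± 0.07). Lactate dehydrogenase (Ldha) counted 3460, 3503 and 3282 in control and 1892, 1775 and 1742 in JTE (−0.92 ± 0.07), and pyruvate kinase (Pkm) fell by 0.70 on the log2 scale. The lactate exporter Slc16a3 counted 158, 179 and 172 in control and 37, 39.8 and 46.5 in JTE (−2.04 ± 0.18). Car9, a carbonic anhydrase that hypoxia induces, dropped from 451, 521 and 356 to 64.5, 62.3 and 42.8 (−2.98 ± 0.22, edgeR adjusted p = 1.13e-08), as did Egln3 (−1.14 ± 0.12). Vegfa (1.07 ± 0.11) and Ndrg1 (1.04 ± 0.09), which hypoxia also induces, rose, so the known hypoxia targets did not move as one. Of 33 nuclear genes of oxidative phosphorylation 7 were higher, 2 lower and 0 regulated, where 25.9% of all genes tested were higher and 26.2% lower. The number lower was 5 with RLE factors, 4 without control 3 or without JTE 2, and 1 without control 1 or without JTE 3.

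In cholesterol synthesis JTE 3 stood apart from the other JTE libraries. Of 24 genes of cholesterol synthesis and uptake 10 were lower and 0 higher (median −0.26), but the list medians relative to the control mean were −0.10, −0.10 and −0.80 in JTE 1, JTE 2 and JTE 3. Without JTE 3, 7 were lower, 3 higher, and the median was −0.10. Hmgcs1 shows this, with 4561, 4798 and 3865 normalised reads in control and 3694, 3664 and 1954 in JTE, and its adjusted p of 0.0199 in edgeR was lost without JTE 3, without control 2 and in a fit of the 6 libraries alone. The letters TCACNCCAC, a core of the sterol response element, occurred in the windows of 1 of 16 genes of this list (Hmgcs1) and of 1.44% of all genes with a window. Of 16 genes of fatty acid synthesis 6 were higher and 5 lower. The desaturase Scd1 was lower in all 3 JTE libraries, at 904, 907 and 492 against 1762, 1974 and 1272 (−1.13 ± 0.21, edgeR adjusted p = 0.000258).

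Of 28 genes that make and break down sphingolipids, the class to which S1p belongs, 14 were higher and 5 lower, with 0 regulated upward and 1 downward (median 0.21). The S1p lyase Sgpl1 (0.36 ± 0.07), the acid ceramidase Asah1 (0.62 ± 0.06) and the kinase Sphk2 (0.43 ± 0.07) rose, whereas Sphk1 counted 754, 681 and 746 normalised reads in control and 748, 794 and 642 in JTE (edgeR adjusted p = 0.991). Spns2, the exporter of S1p, counted 261, 282 and 292 in control and 169, 189 and 114 in JTE and was the regulated member (−0.83 ± 0.13, edgeR adjusted p = 6.52e-05), and without JTE 3 the list had none. S1pr2, the receptor that the compound blocks, counted 810, 796 and 848 in control and 769, 845 and 909 in JTE, with overlapping groups (edgeR adjusted p = 0.655). Of the receptors for S1p and lysophosphatidic acid 3 of 8 were lower and 0 higher, and those that fell were S1pr3 (−0.74 ± 0.11), S1pr1 (−0.56 ± 0.09) and Lpar6 (−0.32 ± 0.09).

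Beta cell transcripts had the lowest median of the 4 endocrine lists. Of 16 genes 12 were lower, 11 of them regulated, and 1, the peptide hormone Ucn3, was higher at a low count (median −1.08). Ucn3 lay close to the threshold (edgeR adjusted p = 0.0419), and its call was lost with the replicate number as a block, with DESeq2, and without control 2, control 3 or any 1 of the JTE libraries. Ins1 counted 18526, 16502 and 17256 normalised reads in control and 792, 807 and 506 in JTE (−4.64 ± 0.27, edgeR adjusted p = 8.16e-10). Below the insulin genes, G6pc2, a glucose-6-phosphatase of islets, counted 332, 284 and 290 in control and 51.8, 63.3 and 25.1 in JTE (−2.70 ± 0.26). The zinc carrier Slc30a8 counted 467, 494 and 455 in control and 158, 179 and 116 in JTE (−1.65 ± 0.14). The insulin gene activator Mafa counted 323, 334 and 341 in control and 149, 171 and 101 in JTE (−1.25 ± 0.19). JTE 3 was the lowest library in each of these genes. No fall was found in the subunits of the beta cell potassium channel. Abcc8 counted 2654, 3263 and 2862 in control and 3807, 3676 and 2741 in JTE (edgeR adjusted p = 0.0836). Kcnj11 counted 292, 298 and 268 in control and 359, 377 and 286 in JTE (edgeR adjusted p = 0.0942). The groups overlapped in both, and both passed the threshold as higher without JTE 3.

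Of 13 genes of the other hormones and their lineage factors 7 were lower and 2 higher (median −0.47). Pancreatic polypeptide (Ppy) counted 356, 333 and 362 normalised reads in control and 103, 103 and 80.9 in JTE (−1.88 ± 0.17). Glucagon (Gcg) counted 10866, 12724 and 8114 in control and 5791, 5921 and 4061 in JTE (−1.01 ± 0.18). Somatostatin (Sst) counted 2982, 3104 and 2783 in control and 2715, 2594 and 2492 in JTE (−0.18 ± 0.12, edgeR adjusted p = 0.203). The groups of Sst did not overlap, but its difference did not pass the threshold. Proteins of the secretory granule were lower in 12 of 20 cases and higher in 3, with Scg2 (−1.68 ± 0.10), Scgn (−1.16 ± 0.11) and the prohormone convertase Pcsk1 (−0.98 ± 0.09) falling and Vgf rising (1.16 ± 0.18).

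Factors of the Neurog3 programme, which commits trunk cells to the endocrine fate, were lower in 9 of 16 cases and higher in 1, with a median of −0.35, and without JTE 3 the number lower was 6 and the median −0.20. Pax4 counted 80.7, 70.4 and 90.6 normalised reads in control and 37, 24.5 and 24.2 in JTE (−1.5 ± 0.20). Mnx1 counted 178, 197 and 158 in control and 73, 89.9 and 65.1 in JTE (−1.23 ± 0.14). Sox4 counted 8765, 8100 and 8494 in control and 4541, 4482 and 4682 in JTE (−0.89 ± 0.06). Insm1 (818, 802 and 682 against 807, 891 and 776) and Rfx6 (297, 347 and 304 against 329, 356 and 322) overlapped between groups. Sox11, a close relative of Sox4, went up (1.41 ± 0.21, edgeR adjusted p = 3.75e-05). Neurog3 counted 504, 451 and 362 in control and 369, 359 and 190 in JTE, overlapping between groups, and its adjusted p of 0.0427 in edgeR was lost without control 1, control 2 or JTE 3 and under most other alternatives.

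**Figure D3:**
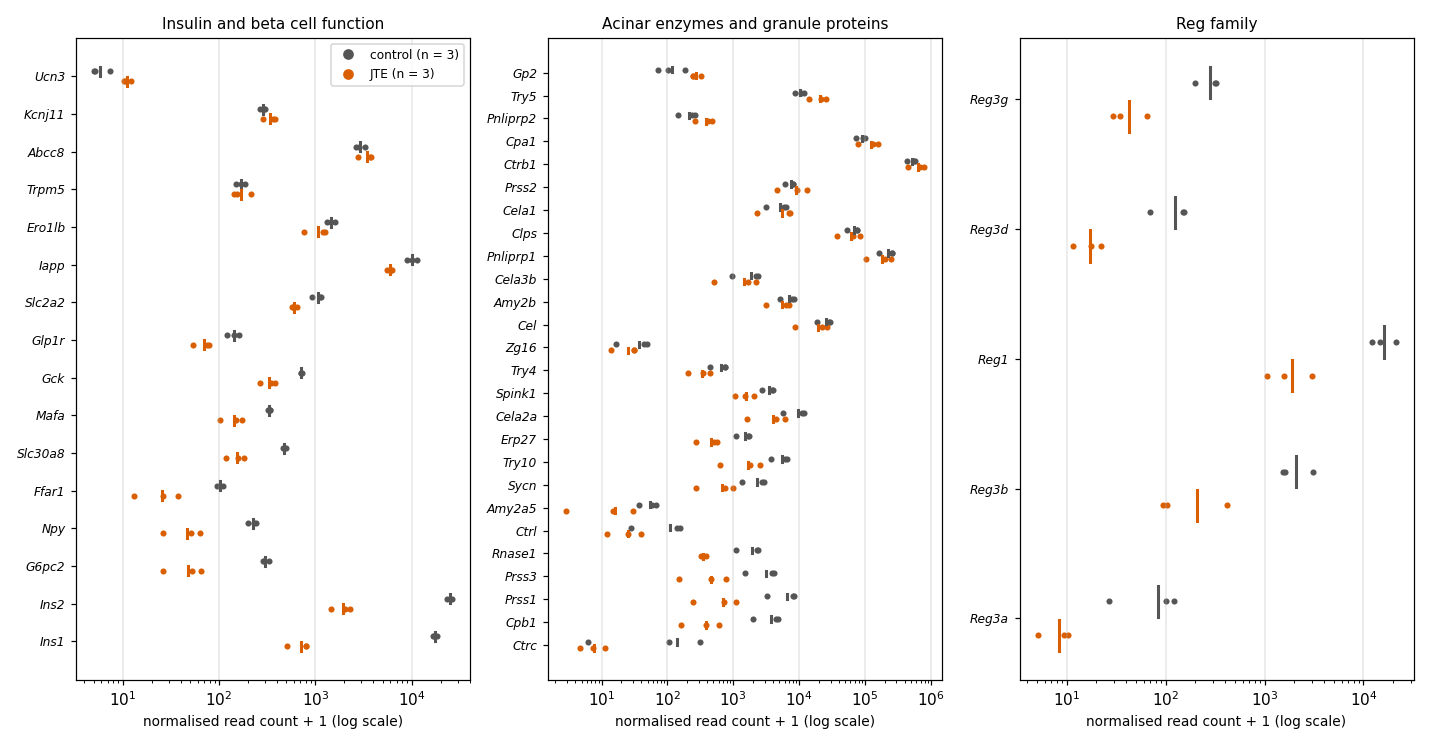
Normalised read count plus 1 (log axis) in the 3 control (grey) and 3 JTE (orange) libraries, with the mean as a short bar, for genes of beta cell function, acinar enzymes and granule proteins, and the Reg family. Ins1, Ins2, G6pc2 and every Reg gene show no overlap between groups, while Ctrb1, Cpa1 and Clps overlap.

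Digestive enzymes of acinar cells separated into groups. Of 27 genes 13 were lower, 3 were higher and 11 did not pass the threshold (median −0.55). Carboxypeptidase B (Cpb1) counted 4739, 4418 and 1966 normalised reads in control and 386, 612 and 158 in JTE (−3.28 ± 0.36, edgeR adjusted p = 1.27e-06). Rnase1 counted 2397, 2315 and 1094 in control and 344, 386 and 321 in JTE (−2.47 ± 0.20, edgeR adjusted p = 4.4e-08). By contrast, colipase (Clps) counted 75808, 74932 and 52314 in control and 65224, 82596 and 37946 in JTE, with overlap. The zymogen granule protein Gp2 (1.19 ± 0.25) and the lipase-related Pnliprp2 (0.85 ± 0.23) rose. Trypsinogens such as Prss1, Prss3, Try4, Try5 and Try10 are near-identical copies. Because only uniquely aligned reads were counted, these genes may have lost reads.

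The median of the acinar enzymes over the control mean was −0.19, −0.14 and −1.59 in JTE 1, JTE 2 and JTE 3 and 0.29, 0.25 and −0.52 in the control libraries, so that JTE 3 and control 3 were the lowest of their groups. Without JTE 3 the list median was −0.24, with 13 genes lower and 6 higher. Cpb1, Prss1, Prss3 and Rnase1 were lower in every JTE library than in any control library. Of 7 acinar transcription factors tested, Ptf1a passed the threshold, and it was higher (0.83 ± 0.18, edgeR adjusted p = 0.000791). Without JTE 3, 3 of them passed as higher, Rbpjl and Bhlha15 with it.

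Genes of the Reg family, secreted lectins that acinar and islet cells make in injury and inflammation, showed the lowest median of all lists (−3.07), with 5 of 5 lower and 4 regulated. Reg1 counted 21101, 14518 and 12246 normalised reads in control and 1069, 1576 and 3050 in JTE (−3.07 ± 0.32, edgeR adjusted p = 5.72e-07). Reg3b counted 3068, 1600 and 1520 in control and 103, 92.9 and 420 in JTE (−3.30 ± 0.48, edgeR adjusted p = 2.26e-05). Unlike the enzymes, Reg1 and Reg3b were highest in JTE 3 among the JTE libraries.

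Duct genes changed strongly in both directions. The anion exchanger Slc26a3 was at 1 read or none in each control library and at 263, 251 and 146 normalised reads in JTE, at least 70.8-fold higher against a floor of 3 reads a library. Aquaporin 1 (Aqp1), a water channel of ducts, counted 1154, 967 and 952 in control and 134, 120 and 90.2 in JTE (−3.16 ± 0.14). The chloride channel Cftr counted 103, 104 and 89.6 in control and 24.3, 26.5 and 20.5 in JTE (−2.05 ± 0.21, edgeR adjusted p = 6.07e-07). Tspan8 (−3.39 ± 0.28), osteopontin (Spp1, −1.39 ± 0.13) and Krt7 (−0.89 ± 0.10) also fell, and the ciliary protein Pkhd1 rose (0.69 ± 0.10). In all 7 of 16 duct genes were lower and 3 higher.

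Transcription factors of progenitors and trunk had a median near 0, with 5 of 17 lower and 3 higher (29.4% and 17.6%, beside 26.2% and 25.9% of all genes tested). Nkx6-2 stood apart, at 448, 407 and 392 normalised reads in control and 15.9, 14.3 and 3.72 in JTE (−5.22 ± 0.27, edgeR adjusted p = 1.63e-10). Its relative Nkx6-1 counted 2228, 2025 and 2039 in control and 2397, 2273 and 1942 in JTE, with overlap (edgeR adjusted p = 0.406). Hnf4a (−1.04 ± 0.13), Sox9 (−0.70 ± 0.09) and Pdx1 (−0.67 ± 0.08) fell without overlap between groups.

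General epithelial markers were lower in 10 of 17 cases (10 without JTE 3) and higher in 1 (4 without JTE 3), but not evenly. The keratins Krt8 (−1.06 ± 0.10) and Krt18 (−0.85 ± 0.11) and claudins Cldn4 (−0.77 ± 0.09) and Cldn6 (−1.11 ± 0.07) fell. E-cadherin (Cdh1) counted 9553, 9056 and 8308 normalised reads in control and 10067, 10454 and 8508 in JTE. Cldn7 counted 2640, 2457 and 2249 in control and 2725, 2836 and 2408 in JTE. Both overlapped between groups, and both passed the threshold as higher without JTE 3. The summed level of the epithelial list was 56528 to 65564 in the control libraries and 39144 to 49179 in the JTE libraries. Whether the amount of epithelium had a part in the endocrine, duct and acinar differences was not tested.

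In Notch signalling, which holds progenitors undifferentiated, 12 of 27 genes were lower and 3 higher (median −0.20). The receptors Notch1 (2406, 2750 and 2528 against 2540, 2488 and 2402) and Notch2 (2106, 2250 and 2116 against 2110, 2090 and 2325) overlapped between groups. The ligand Dll1 counted 490, 499 and 493 normalised reads in control and 175, 203 and 122 in JTE (−1.57 ± 0.12, edgeR adjusted p = 1.24e-08). Lfng, a glycosyltransferase that tunes the receptors (−1.36 ± 0.18), and the targets Heyl (−0.79 ± 0.08) and Hes1 (−0.33 ± 0.06) fell. Hes6, a member of the Hes family that is not counted here as a target, also fell (−0.93 ± 0.07).

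Wnt genes were lower in 11 of 29 cases and higher in 5, and targets that the signal induces were among those that fell. Axin2 counted 759, 677 and 853 normalised reads in control and 431, 415 and 481 in JTE (−0.79 ± 0.09). Sp5 counted 49.9, 38.2 and 37.5 in control and 3.17, 6.13 and 5.58 in JTE (−3.03 ± 0.38). Lgr5 counted 105, 73.4 and 95.8 in control and 32.8, 25.5 and 18.6 in JTE (−1.84 ± 0.29). The antagonist Dkk3 rose (1.35 ± 0.10) and Dkk2 fell (−1.77 ± 0.13). In the Hedgehog list 3 of 12 genes were higher and 4 lower (25.0% and 33.3%, beside 25.9% and 26.2% of all genes tested). The target Gli1 counted 45.7, 35.2 and 96.8 in control and 6.35, 6.13 and 5.58 in JTE (−3.27 ± 0.40), while Hhip, an inhibitor that the same signal induces, rose (1.43 ± 0.20) and Ptch1 was past no threshold (edgeR adjusted p = 0.164).

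Fgf10, the mesenchymal growth factor of pancreatic progenitors, counted 60.5, 70.4 and 61.4 in control and 186, 149 and 258 in JTE (1.62 ± 0.18, edgeR adjusted p = 1.21e-06). Of 18 FGF genes 4 were higher and 5 lower, near the 25.9% higher and 26.2% lower of all genes tested. In the TGF-beta and BMP list 10 of 26 were lower and 3 higher, and the number lower was 6 without control 1 and 7 without JTE 3. The activin subunits Inhba (−1.46 ± 0.27) and Inhbb (−1.17 ± 0.15) led the falls.

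Genes of retinoic acid were lower in 6 of 13 cases and higher in 2, led by the synthetic enzyme Aldh1a1, at 1101, 926 and 726 normalised reads in control and 293, 302 and 183 in JTE (−1.83 ± 0.20). Among 14 insulin-like growth factor genes 4 were higher (28.6%) and 5 lower (35.7%), beside 25.9% and 26.2% of all genes tested. Without JTE 3, 8 were lower. The binding proteins Igfbp2 (−1.6 ± 0.12) and Igfbp3 (−1.40 ± 0.12) fell and the receptors Insr (0.80 ± 0.08) and Igf2r (0.73 ± 0.08) rose. Of the YAP and TEAD factors 5 of 11 were higher and 2 lower. A signature of YAP targets compiled from general knowledge had 9 of 21 genes lower and 3 higher. Ccn2 (CTGF) counted 328, 277 and 249 in control and 111, 80.7 and 42.8 in JTE (−1.88 ± 0.22), and Dock5 rose (1.55 ± 0.10). The letters CATTCC, which TEAD factors bind, occurred in the windows of 7 of 15 signature genes, against 16.58% of all genes with a window. They occurred as often, for 7 of 15 genes, among smooth muscle and SRF targets, and for 6 of 20 digestive enzymes.

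Contractile genes, which the serum response factor controls, were lower without exception among those past the threshold (12 of 19, 0 higher, median −0.63). Smooth muscle actin (Acta2) counted 524, 577 and 550 normalised reads in control and 251, 242 and 225 in JTE (−1.20 ± 0.12). Tagln counted 847, 667 and 732 in control and 220, 237 and 191 in JTE (−1.79 ± 0.13). Myl9 counted 231, 193 and 195 in control and 66.7, 49 and 38.1 in JTE (−2.02 ± 0.16). The factor Srf itself counted 1058, 1076 and 1016 in control and 1003, 979 and 1068 in JTE. Of 15 mesenchymal markers 4 were lower (26.7%) and 1 higher (6.67%), beside 26.2% lower and 25.9% higher of all genes tested. Their summed levels were 23632 to 26908 in the control libraries and 19575 to 22231 in the JTE libraries. The growth factor receptor Pdgfra counted 1908, 1964 and 2204 in control and 1960, 1981 and 2362 in JTE. Mesothelial markers were lower in 5 of 7 cases, with Upk3b at 225, 277 and 322 in control and 68.8, 68.4 and 100 in JTE (−1.78 ± 0.17), but the defining factor Wt1 overlapped (297, 306 and 379 against 237, 268 and 455).

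In the matrix, fibrillar collagens Col1a1 (0.50 ± 0.07) and Col5a1 (0.57 ± 0.08) rose and the cartilage collagens Col2a1 (−1.88 ± 0.12) and Col9a1 (−2.77 ± 0.25) fell, with 7 of 24 higher and 10 lower. Adhesive proteins were lower in 13 of 29 cases and higher in 6. Tenascin C (Tnc) counted 833, 795 and 1178 normalised reads in control and 444, 349 and 300 in JTE (−1.36 ± 0.15). Periostin (Postn) counted 1517, 1681 and 1690 in control and 658, 729 and 704 in JTE (−1.23 ± 0.09), and thrombospondin 1 (Thbs1) fell by 1.03 on the log2 scale, whereas the laminin chains Lamc1 (0.47 ± 0.05) and Lamb1 (0.40 ± 0.06) rose. Of the matrix proteinases and inhibitors 6 of 15 were higher and 5 lower, among them Mmp12, a proteinase of macrophages, at 77.5, 135 and 105 in control and 1.06, 0 and 6.51 in JTE (−5.25 ± 0.49), and without control 1 the number higher was 3.

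Macrophage markers fell in full: 15 of 15 were lower, 13 of them regulated, with a median of −1.81. Csf1r, the receptor for colony-stimulating factor 1 on which macrophages depend, counted 557, 786 and 634 normalised reads in control and 79.3, 74.5 and 70.7 in JTE (−3.14 ± 0.16, edgeR adjusted p = 1.72e-10). The chemokine receptor Cx3cr1 counted 391, 473 and 366 in control and 42.3, 32.7 and 16.7 in JTE (−3.76 ± 0.20, edgeR adjusted p = 2.14e-10). The markers did not fall by the same amount: Adgre1 (F4/80) counted 306, 280 and 335 in control and 184, 229 and 274 in JTE (−0.42 ± 0.16, edgeR adjusted p = 0.0407, lost without control 1, control 3, JTE 1 or JTE 2, and without 1 library of either of 2 other groups). The lysosomal marker Cd68 counted 441, 509 and 493 in control and 339, 308 and 380 in JTE (−0.49 ± 0.11). The summed level of the list was 8007 to 8454 in the control libraries and 2755 to 3438 in the JTE libraries. No marker was at 0 in either group, and all 15 genes were without overlap. Groups also did not overlap for 21 of 27 genes of glycolysis and hypoxia. The share over all genes tested was not counted, so these counts do not set the macrophage markers apart.

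Interferon-stimulated genes, which type I interferon switches on in most cells, were lower in 14 of 16 cases and higher in 1 (Ifi27), with a median of −1.88. The control libraries differed here. Irf7 counted 1401, 149 and 225 normalised reads in control and 41.3, 48 and 173 in JTE (−2.72 ± 0.65). Isg15 counted 1224, 108 and 186 in control and 43.4, 41.9 and 109 in JTE (−2.94 ± 0.66), so that control 1 stood far above the other controls and JTE 3 above the other JTE libraries, with overlap between groups. The list medians over the control mean were 1.39, −0.79 and −0.44 in the control libraries and −1.88, −1.88 and −0.98 in the JTE libraries. Without control 1 the log2 fold change was −1.07 for Irf7 and −1.16 for Isg15. Without it, 12 genes were lower, 6 in place of 14 were regulated, and the median was −0.99. Oas1a (329, 52.3 and 67.7 against 4.23, 4.08 and 28.8) and Usp18 (597, 98.5 and 142 against 31.7, 36.8 and 68.8) were without overlap. The part of the macrophage markers, which fell in the same libraries, in this difference was not tested.

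**Figure D4:**
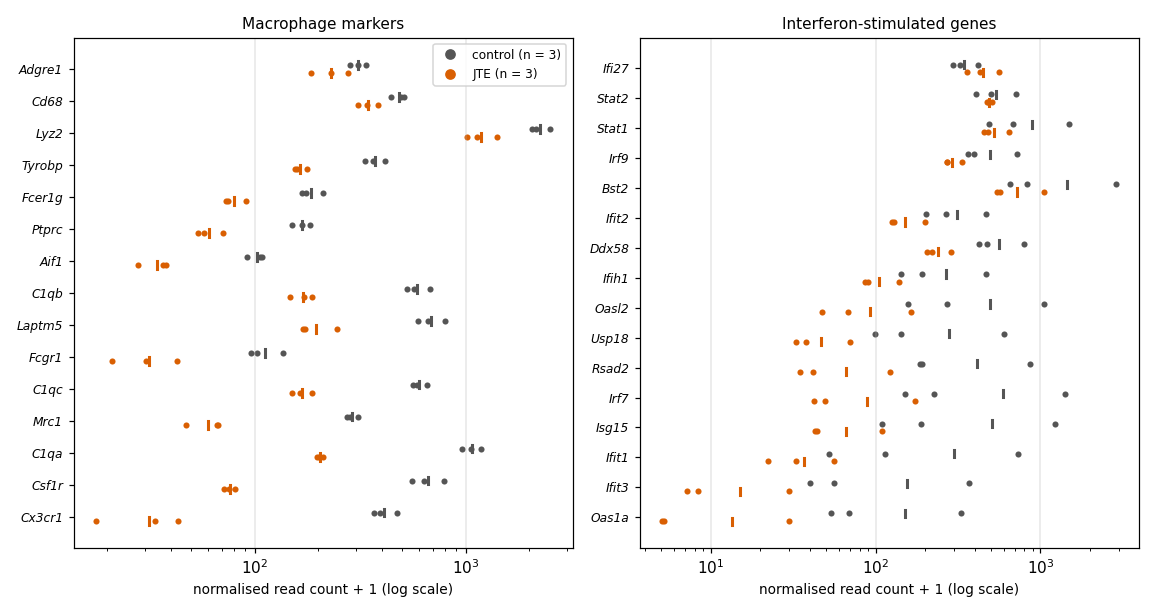
Normalised read count plus 1 (log axis) of macrophage markers and interferon-stimulated genes in the 3 control (grey) and 3 JTE (orange) libraries, with the mean as a short bar. Macrophage markers show no overlap between groups; for most interferon-stimulated genes 1 grey point, control 1, lies far to the right of the other control libraries.

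Endothelial markers were lower in 9 of 14 cases and higher in 0, with summed levels of 8826 to 10839 in the control libraries and 6924 to 7756 in the JTE libraries. The angiopoietin receptor Tek counted 87.1, 68.4 and 120 normalised reads in control and 36, 23.5 and 31.6 in JTE (−1.59 ± 0.21). The Vegf receptor Flt1 counted 315, 261 and 355 in control and 128, 126 and 86.5 in JTE (−1.46 ± 0.13), while Erg (245, 210 and 248 against 245, 191 and 220) and Cldn5 (488, 512 and 573 against 615, 555 and 618) overlapped. Markers of neural crest, glia and neurons gave 1 higher and 3 lower of 13 (7.69% and 23.1%), led by S100b (−2.01 ± 0.27). Erythroid genes gave 0 higher and 1 lower of 13 (0.0% and 7.69%). Among all genes tested 25.9% were higher and 26.2% lower. The erythroid median over the control mean was −0.02, −0.14 and 0.81 in JTE 1, JTE 2 and JTE 3.

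Several of the regulated genes with the largest changes belong to none of these lists. Wfdc18 counted 126, 101 and 88.5 normalised reads in control and none in any JTE library, at least 34.9-fold lower against the floor of 3 reads a library. Slc5a10, a sugar carrier, was at least 54.9-fold lower (153, 260 and 82.3 against 0, 2.04 and 0) and 1810009J06Rik at least 34.8-fold lower. Gm2663 (−7.21 ± 0.33), Clca3a2 (−6.76 ± 0.21), Fcrls (−5.82 ± 0.26), Akr1cl (−4.74 ± 0.28) and lymphotoxin beta (Ltb, −4.67 ± 0.30) were also among the steepest falls, with Mmp12, Nkx6-2 and Ins1. The steepest rises outside the lists were Trim66 (4.44 ± 0.36), Angptl6 (3.46 ± 0.14), Steap1 (3.46 ± 0.17), a metal reductase, and Soat2 (2.83 ± 0.26), which esterifies cholesterol. None of the genes named for the size of their change had overlapping groups, which was a condition for naming them.

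**Figure D5:**
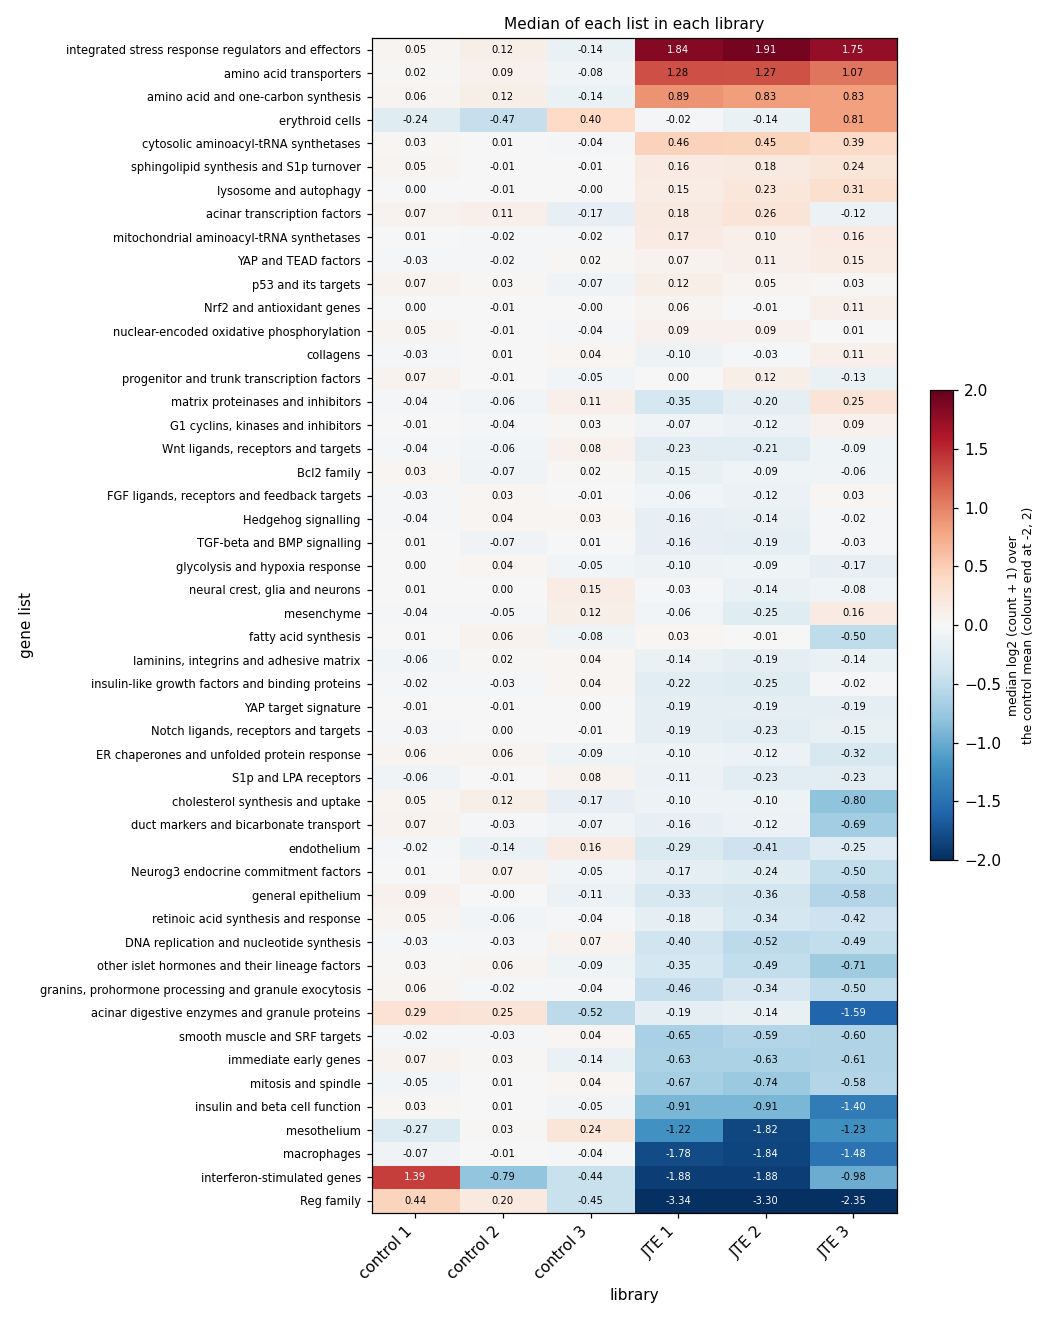
Median over the genes of each list of log2 (normalised count + 1) minus the mean of the control libraries (cells, colour and number), for the 3 control and 3 JTE libraries. JTE 3 differs from JTE 1 and JTE 2 in the rows of acinar enzymes and cholesterol synthesis, and control 1 from the other control libraries in the row of interferon-stimulated genes.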

How the data were processed

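RNA of the pancreatic explants was sequenced on a poly(A) library of single-end reads. The authors aligned reads with GSNAP to mm10 using Ensembl 69 and counted uniquely aligned reads per gene with featureCounts, and they deposited raw read counts. Genes with near-identical copies may therefore lose reads. Whether counting used strand is not given in the sources used here, so reads of overlapping antisense genes may not be separated. From these counts all 15 libraries were fitted with edgeR 4.0.16 (R 4.3.3; TMM factors, filterByExpr, quasi-likelihood F-test), and JTE minus control was tested with Benjamini-Hochberg adjustment over 16245 genes. The libraries were treated as independent samples, since no label pairs them. The spread behind the p-values was estimated within the groups of all 15 libraries. Gene lists and their members were chosen with earlier results of these data known. Genes were named by rule, as the 12 largest rises and 12 largest falls among regulated genes without overlap between groups, up to 6 members past an adjusted p of 0.05 a direction in each list, and the members that define a list's role. Some of these genes are not reported here. Of the 950 list genes found, 930 were tested. For normalised values each count was scaled by its library's TMM-adjusted size over the mean size of the libraries. Alternatives were the 6 libraries alone, RLE factors, no filter, DESeq2 1.42.0, a replicate block, a Y-linked covariate, each library left out, and a stricter fold. Scripts were tested on simulated data. Promoters came from RefSeq GRCm38.p6.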

Additional observations from a re-analysis of the deposited data

How the results depend on the processing

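The count of regulated genes was 1341 (500 higher, 841 lower) and stayed within 1.5 times that number under every alternative but the stricter fold. A fold below 0.5 or above 2 left 733 regulated genes, 187 higher and 546 lower. With 1 library left out in turn, regulated genes numbered 1321 to 1419 (474 to 531 higher, 823 to 889 lower), and genes past an adjusted p of 0.05 numbered 7776 to 8639 (3790 to 4290 higher, 3963 to 4349 lower). The fit of the 6 libraries alone gave 1327 regulated genes, RLE factors 1351, no filter 1349, the Y-linked covariate 1338 and DESeq2 1346. No label says that replicate numbers pair the samples. Deviations of same-numbered control and JTE libraries correlated at −0.126, 0.297 and 0.309, and not every library correlated best with its own number. With 3 libraries a group, such correlations cannot decide whether samples were paired. With the replicate number as a block 1341 genes were regulated and 8338 passed an adjusted p of 0.05, and the only count of a list that the block moved by over 1.5 times was that of higher genes in the beta cell list, 0 in place of 1. In the fit of the 6 libraries alone, lower genes fell from 10 to 5 in the cholesterol list and from 4 to 2 in the Hedgehog list, and higher genes from 6 to 3 in the list of matrix proteinases. Single calls in one direction, in the beta cell, interferon, neural, erythroid and mitochondrial synthetase lists, were each lost without at least 1 of the 6 libraries. No named gene that was called reversed its direction. List medians carry no call, and one near 0 could change sign: the G1 median was −0.043 and, without control 3, 0.072. Of the single genes, 378 values of 83 results lost the threshold under an alternative, and 176 values of 100 results gained it. Medians of 15 lists moved in 38 values, by at least the standard deviation of that median between the 3 JTE libraries. That limit is narrow for lists on which the JTE libraries were alike. The cause of these changes was not tested. At a depth of 12144568 to 13589186 reads, a bound on the fold is given where every library of a group held at most 3 reads.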

Other observations

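Genes outside the lists that share a compartment or a role were read after their values had been seen, and they are given as values without a test of the group. Chaperones and proteases of the mitochondrial matrix were higher in JTE. Lonp1, the main matrix protease, counted 2199, 2196 and 2076 normalised reads in control and 8653, 8296 and 7929 in JTE (1.94 ± 0.06, edgeR adjusted p = 7.4e-13). Hspa9, the matrix Hsp70, counted 5147, 5078 and 5108 in control and 14880, 15134 and 16558 in JTE (1.6 ± 0.06), and its cochaperone Dnaja3 differed by 1.10 ± 0.06. The chaperonin genes Hspd1 (0.47 ± 0.04) and Hspe1 (0.42 ± 0.07) and the protease Clpp (0.46 ± 0.07) differed by less, and Chchd10, a protein of the intermembrane space, by 2.46 ± 0.10. The zinc exporter Slc30a1, which zinc induces together with the metallothioneins, differed by 1.27 ± 0.10. Regulators of nutrient sensing at the lysosome, Flcn (1.14 ± 0.06), Fnip1 (1.02 ± 0.11) and Rragd (1.34 ± 0.11), and the lysosomal proteins Gpnmb (1.20 ± 0.16) and Mcoln3 (2.09 ± 0.15), were higher. The angiopoietins Angpt1 (1.48 ± 0.18) and Angpt2 (1.72 ± 0.17), ligands of the receptor Tek, were higher while Tek was lower (−1.59 ± 0.21).

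A few genes known from liver and gut epithelium, picked after their values had been seen, were lower, as was Hnf4a. They do not stand for all genes of these tissues. Krt20 counted 527, 361 and 370 normalised reads in control and 29.6, 50 and 35.3 in JTE (−3.44 ± 0.20). Villin (Vil1) differed by −2.54 ± 0.15, the liver pyruvate kinase Pklr by −2.25 ± 0.14 and the glucagon receptor Gcgr by −3.74 ± 0.25. Alpha-fetoprotein (Afp) counted 407, 339 and 317 in control and 71.9, 79.6 and 107 in JTE (−2.03 ± 0.62, edgeR adjusted p = 0.0116).

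Some genes of immune defence outside the macrophage and interferon lists, picked after their values had been seen, were lower too. Cd74, the chain that escorts MHC class II, counted 396, 282 and 361 normalised reads in control and 10.6, 26.5 and 49.3 in JTE (−3.55 ± 0.29). The chemokine Cxcl16 counted 814, 653 and 701 in control and 115, 136 and 117 in JTE (−2.56 ± 0.14), and complement factor I (Cfi) counted 2621, 2113 and 2085 in control and 214, 294 and 236 in JTE (−3.19 ± 0.14). The interferon-inducible genes Cxcl10, Psmb8, Irgm1 and Gbp2 were highest in control 1 and, among the JTE libraries, in JTE 3, with log2 fold changes of −2.28, −2.0, −2.16 and −1.77. These fold changes include control 1, without which the falls of Irf7 and Isg15 given above were smaller. Whether fewer macrophages had a part in the values of these immune genes was not tested.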
